A study of Mus musculus with 4 samples.

Results

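The leukocyte integrins and the selectin ligand described here are 8 genes that were picked by name: the α subunits Itga4, Itga5, Itgal and Itgam, the β subunits Itgb1, Itgb2 and Itgb7, and Selplg, which encodes PSGL-1. They are 8 of the 27998 gene rows counted in each of 4 single-cell RNA libraries from mouse spinal cord (SC) in EAE, the mouse model of multiple sclerosis induced here with MOG peptide in complete Freund's adjuvant. All 8 were found, and 9 rows carry their names, since Itgam has a second row. The blockade pair was taken at 14 days post immunization (dpi) from wild-type C57Bl/6JOlaHsd mice of 15 weeks that received 400 ng doses of pertussis toxin and, from the day of immunization, either the mouse IgG1 isotype control (mIgG1) or an antibody that blocks angiopoietin-2 (Ang2 Ab). The overexpression pair was taken at 12 dpi from C57Bl/6JCrl mice of 12 to 14 weeks that received 200 ng doses: mice that carry both VE-cadherin-tTA and Tet-OS-Ang2 (EC-Ang2), in which the endothelial VE-cadherin promoter drives Ang2 once doxycycline is withdrawn, and single transgenic littermates (Ctrl). CD45+ leukocytes and CD31+ endothelial cells (ECs) were sorted in equal numbers, and there was 1 library per condition, from a number of mice not given in the sources used here. Levels were therefore compared between cell classes with the 4 libraries as replicates, and between conditions by size alone, without a test.

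Integrins are pairs of an α and a β chain that hold leukocytes to vessel walls and matrix. Itga4 pairs with Itgb1 (VLA-4, a receptor of VCAM-1 and fibronectin) or with Itgb7 (a receptor of MAdCAM-1), Itgal and Itgam pair with Itgb2 (LFA-1 and Mac-1, which bind ICAMs and complement), and Itga5 pairs with Itgb1 to form the fibronectin receptor, which also binds Ang2. PSGL-1 binds the selectins of activated endothelium and starts the rolling that comes before arrest. VLA-4 is the target of natalizumab, a treatment of multiple sclerosis.

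Barcodes with at least 2000 unique molecular identifiers (UMIs, each standing for 1 counted molecule) numbered 5427 to 7498 per library, and 5022 to 6802 cells with a median of 4627 to 6699 UMIs were kept after removal of predicted doublets and of cells rich in mitochondrial or cell cycle RNA. Of these, 93.2% to 96.3% fell into 7 classes named "-like" from marker genes, with the 8 genes and the lists used below left out of the clustering. Most classes held their defining markers: Cd3e stood at 477 to 633 CPM (UMIs of a gene per 1000000 UMIs of its class and library) in T cell-like, Csf3r at 291 to 575 in neutrophil-like, Ly6c2 at 2261 to 3334 in monocyte-like, Flt3 at 81.4 to 105 in dendritic cell-like and Cldn5 at 4587 to 7100 in EC-like cells. Monocyte-like and macrophage-like cells shared markers. The 6 monocyte markers summed to 13436 to 29417 CPM in the former and to 4498 to 11562 in the latter, without overlap, but Ly6c2 was at 1023 to 3053 CPM in macrophage-like cells, and the 8 macrophage markers summed to 16934 to 38730 CPM there and to 16864 to 23375 in monocyte-like cells, with the monocyte-like sum the higher one in Ctrl. By marker score, a cluster of 315 Ctrl and 538 EC-Ang2 cells named macrophage-like was nearer to monocytes, at 2.37 against 1.46 for macrophages. Another, of 254 and 407 cells, stood at 2.13 against 1.95. The cluster of 124 and 450 cells was the only one here led by macrophage markers, at 2.83 against 0.91. Most macrophage-like cells of Ctrl and EC-Ang2, a part of the reference class in the tests, thus go against their name by leading score. In the blockade pair, a macrophage-like cluster of 553 mIgG1 and 485 Ang2 Ab cells was nearly level, at 1.45 for macrophages and 1.446 for monocytes. Angpt2, the gene that EC-Ang2 mice overexpress, stood at 1130 CPM in their EC-like cells, against 70.5 in Ctrl. In the blockade pair it also differed, at 312 CPM in EC-like cells of Ang2 Ab against 50.6 in mIgG1. One library stood apart in one class. In EC-Ang2, 22 cells were microglia-like, against 129 to 642 in the other libraries, and they held Ly6c2 at 2058 CPM (22.5 to 94.3 elsewhere) and Tmem119 at 219 (520 to 1075 elsewhere), so that these cells go against their name. They enter the microglia-like tests as 1 of the 4 replicates, and the fits without the EC-Ang2 library are given where the range or the call rests on them. Neutrophil-like cells numbered 75 in mIgG1. Libraries shared 51 to 77 barcodes, against 48.9 to 71.3 for sets of that size drawn at random.

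The genes lie on 6 chromosomes of GRCm38 and are protein coding: Itga4 at chr2:79255426-79333123, Itga5 at chr15:103344286-103366763, Itgal at chr7:127296260-127335138, Itgam at chr7:128062640-128118491, Itgb1 at chr8:128685654-128733200, Itgb2 at chr10:77530252-77565708, Itgb7 at chr15:102215995-102231944 and Selplg at chr5:113818536-113832644. The second Itgam row overlaps the first by 55809 bases on the same strand and held at most 42.8 CPM in any class. It is left out of the values below, except where it is named. RefSeq promoter sequence of GRCm38.p6 was matched for 5 of the 8 genes. The 250 bases before the start of 3 of them are shown, since Itgam, Itga4 and Itga5 had 3 different orders over the cell classes, with capitals for GAGGAA (the core of sites of the myeloid factor PU.1), TGTGGT (the core of RUNX sites) and GGGCGG (the GC box), each on either strand.
Itgam, chr7:128062390-128062639, plus strand: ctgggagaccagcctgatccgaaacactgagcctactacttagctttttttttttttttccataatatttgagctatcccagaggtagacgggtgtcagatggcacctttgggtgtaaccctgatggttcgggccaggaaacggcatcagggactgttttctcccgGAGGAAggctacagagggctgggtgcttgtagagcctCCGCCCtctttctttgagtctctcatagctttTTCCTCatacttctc
Itga4, chr2:79255176-79255425, plus strand: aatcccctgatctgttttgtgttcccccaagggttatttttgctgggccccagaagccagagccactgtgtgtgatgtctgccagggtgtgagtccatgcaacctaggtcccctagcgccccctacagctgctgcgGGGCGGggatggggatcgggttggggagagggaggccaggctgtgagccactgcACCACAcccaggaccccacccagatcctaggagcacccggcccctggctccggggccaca
Itga5, chr15:103366792-103367041, minus strand: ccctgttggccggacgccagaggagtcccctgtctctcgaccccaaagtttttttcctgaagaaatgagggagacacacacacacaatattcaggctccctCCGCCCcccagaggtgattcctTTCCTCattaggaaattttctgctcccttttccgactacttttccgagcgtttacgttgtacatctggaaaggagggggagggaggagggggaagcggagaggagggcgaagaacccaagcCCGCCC
The Itgam window held GAGGAA 2 times, the Itga5 window 1 time and the Itga4 window 0 times, and TGTGGT occurred only in the Itga4 window among these 3. Of 32851 RefSeq promoters, 23.25% held GAGGAA, 14.05% TGTGGT and 32.74% GGGCGG in a window of the same length, and the capitals in the printed runs do not overlap one another.

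The genes were not spread alike over the classes, though neutrophil-like and monocyte-like cells each overlapped macrophage-like cells for several of them. Itgb7 and Itgal were highest in T cell-like cells, Itga4 in dendritic cell-like cells, Itgb2 in macrophage-like cells and Itgam in microglia-like cells. Selplg was high in T cell-like, dendritic cell-like and microglia-like cells, and Itgb1 in T cell-like and EC-like cells, with overlapping ranges. EC-like cells held Itgb1 and Itga5, little Itga4, and the other 5 genes at about the level that free RNA could give.

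**Figure D1:**
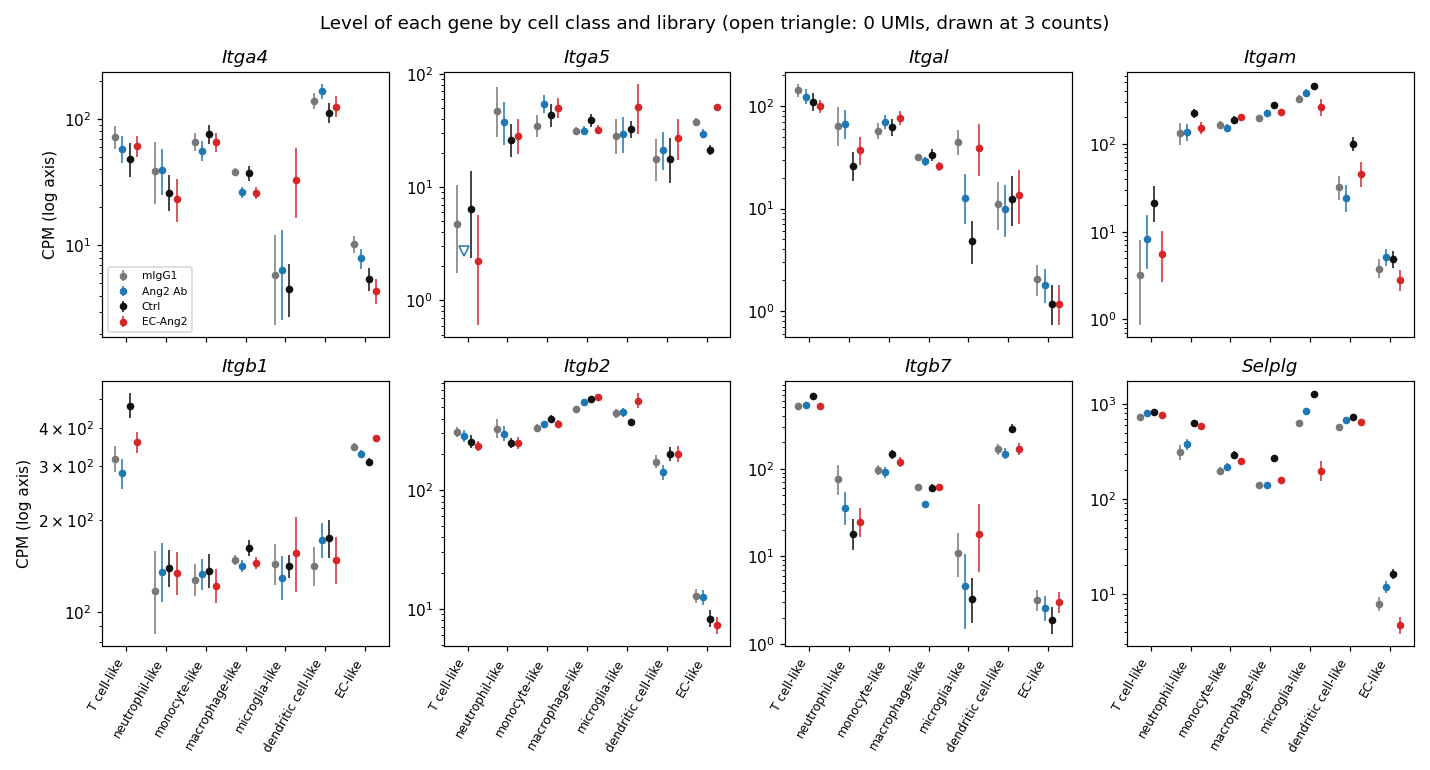
CPM (log axis) of each of the 8 genes in 7 cell classes, 1 point per library with its exact 95% Poisson interval, which covers counting error only. Itgb2 lay between 484 and 604 in macrophage-like cells and between 7.26 and 12.9 in EC-like cells, while Itga5 was at 17.7 or more in every class but T cell-like, where 0 UMIs are drawn as an open triangle at 3 counts.

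Itga4, the α chain of VLA-4, was highest in dendritic cell-like cells. Its level there was 140.05, 166, 111 and 125 CPM in mIgG1, Ang2 Ab, Ctrl and EC-Ang2, against 37.9, 26.4, 37.2 and 26.0 in macrophage-like cells, so that the groups did not overlap. The difference was 2.01 ± 0.22 on the log2 scale (SE, n = 4 libraries, edgeR adjusted p = 5.81e-08). In monocyte-like cells Itga4 stood at 65.6, 55.8, 76.2 and 65.5 CPM, again above every macrophage-like value (log2 difference 1.13 ± 0.22, edgeR adjusted p = 0.000559). T cell-like cells, with 71.4, 58.0, 48.0 and 60.8, overlapped the monocyte-like range. Their difference from macrophage-like cells, 0.74 ± 0.23 (edgeR adjusted p = 0.00855), was lost without the Ang2 Ab library (0.64, edgeR adjusted p = 0.0891), with cycling cells kept (0.33, edgeR adjusted p = 0.171), with doublets kept (0.41, edgeR adjusted p = 0.226) and by the order-of-magnitude rule for the UMI minimum (0.53, edgeR adjusted p = 0.0797). Microglia-like cells held 5.84, 6.40 and 4.55 CPM in mIgG1, Ang2 Ab and Ctrl, and 33.0 in the 22 cells of EC-Ang2. Only the 33.0 of the 22 cells fell in the macrophage-like range. The difference of microglia-like from macrophage-like cells was -2.35 ± 0.34 (edgeR adjusted p = 5.87e-06). Without the EC-Ang2 library it was -2.88 (edgeR adjusted p = 2.52e-07). EC-like cells, at 4.35 to 10.2, overlapped the microglia-like range.

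Itgb7 was highest in T cell-like cells. It stood at 513, 538, 670.2 and 521 CPM in T cell-like and at 61.1, 39.7, 60.5 and 61.4 in macrophage-like cells (log2 difference 3.16 ± 0.25, edgeR adjusted p = 4.29e-11). Dendritic cell-like cells came next with 166, 148, 287 and 168 CPM (1.69 ± 0.24 against macrophage-like, edgeR adjusted p = 3.34e-06), a difference that fell to 0.14 when each cell was assigned by its own marker UMIs. Monocyte-like cells held 90.7 to 145. These 3 ranges did not overlap each other. Itgb7 was low in microglia-like cells, with 10.8, 4.57 and 3.29 CPM in mIgG1, Ang2 Ab and Ctrl and 18 in EC-Ang2, all below the macrophage-like values (-3.37 ± 0.37, edgeR adjusted p = 1.40e-07). They were above EC-like cells, at 1.87 to 3.15 (1.42 ± 0.45, edgeR adjusted p = 0.00759), but not without the mIgG1 library (1.11, edgeR adjusted p = 0.0612). The upper estimate of free RNA was 22.8%, 48.0% and 71.9% of the Itgb7 UMIs in microglia-like cells of mIgG1, Ang2 Ab and Ctrl, and in EC-like cells it exceeded the UMIs counted. Neutrophil-like cells, at 18.1 to 75.5, overlapped macrophage-like cells (-0.58 ± 0.30, edgeR adjusted p = 0.121), and the difference passed without mIgG1 (-0.85, edgeR adjusted p = 0.0379).

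Itgb2, the β chain of LFA-1 and Mac-1, was found at 484, 549, 583 and 604 CPM in macrophage-like cells and at 445, 451, 371 and 567 in microglia-like cells. The overlap of these classes comes from the 567 of the 22 EC-Ang2 cells, and the other 3 microglia-like values lie below every macrophage-like value. Every other leukocyte class was lower than macrophage-like cells, by the most in dendritic cell-like cells, at 142 to 202 (log2 difference -1.73 ± 0.16, edgeR adjusted p = 5.03e-09), then in T cell-like cells, at 237 to 311 (-1.21 ± 0.16, edgeR adjusted p = 4.45e-07), and in neutrophil-like cells, at 248 to 330 (-0.81 ± 0.16, edgeR adjusted p = 0.000272). Smaller differences passed in monocyte-like cells, at 336 to 399 (-0.53 ± 0.16, edgeR adjusted p = 0.0149), and in microglia-like cells (-0.49 ± 0.16, edgeR adjusted p = 0.0163). Neither held without every library. The monocyte-like call was lost without mIgG1 (edgeR adjusted p = 0.0546) or Ang2 Ab (edgeR adjusted p = 0.105), and the microglia-like call without Ang2 Ab (edgeR adjusted p = 0.0737) or Ctrl (edgeR adjusted p = 0.129), and with counts scaled to library totals alone (edgeR adjusted p = 0.184). Without EC-Ang2 the microglia-like difference was -0.58 (edgeR adjusted p = 0.00762).

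Its 2 α partners went to different classes. Itgal was highest in T cell-like cells, at 141, 123, 109.9 and 99.2 CPM against 31.6, 28.8, 33.3 and 25.8 in macrophage-like cells (log2 difference 1.79 ± 0.27, edgeR adjusted p = 2.92e-06), and monocyte-like cells followed with 56.7 to 76.9 (1.23 ± 0.27, edgeR adjusted p = 0.00158), a call lost at the lower clustering resolution (0.77, edgeR adjusted p = 0.101). Neutrophil-like cells held 26.2 to 67.0 (0.78 ± 0.32, edgeR adjusted p = 0.0525), a difference that passed without the Ctrl library (edgeR adjusted p = 0.00568). Itgam was highest in microglia-like cells, at 322, 380.4, 459.6 and 261 CPM, with macrophage-like cells at 197, 226, 274 and 229.5. The ranges overlapped only through the 261 of the 22 EC-Ang2 cells. The difference of 0.41 ± 0.22 did not pass (edgeR adjusted p = 0.160), nor did it without the EC-Ang2 library (0.50, edgeR adjusted p = 0.123), but it passed under 3 of 20 alternatives, with edgeR adjusted p = 0.0267 at the lowest. Neutrophil-like cells held Itgam at 131 to 222 (-0.35 ± 0.23 against macrophage-like, edgeR adjusted p = 0.240). The second Itgam row went the other way, at 20.8 to 42.8 in neutrophil-like and 5.72 to 16.7 in macrophage-like cells (1.53 ± 0.25, edgeR adjusted p = 2.96e-05).

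In T cell-like cells Itgam was at 3.17, 8.15, 21.3 and 5.57 CPM, -4.94 ± 0.32 from macrophage-like cells (edgeR adjusted p = 6.80e-13). The upper estimate of free RNA was 161%, 67.0%, 38.1% and 80.9% of these UMIs in mIgG1, Ang2 Ab, Ctrl and EC-Ang2. Dendritic cell-like cells lay between, at 31.9, 24.4, 99.95 and 45.2 (-2.41 ± 0.25, edgeR adjusted p = 2.64e-08). The Ctrl library was the highest of the 4 in both classes. In Ctrl, the 6 microglia markers summed to 175 CPM in T cell-like and 512 in dendritic cell-like cells, against 15.6 to 43.5 and 35.8 to 103 in the other libraries. In cells without a UMI of these markers, Itgam lay -5.30 from macrophage-like cells in T cell-like and -2.74 in dendritic cell-like cells. Itgal was lower in dendritic cell-like cells, at 9.89 to 13.6, than in any macrophage-like library (-1.47 ± 0.38, edgeR adjusted p = 0.00329). In microglia-like cells Itgal spread from 4.80 to 44.2, and its call there (-0.88 ± 0.35, edgeR adjusted p = 0.0489) was lost under 12 of 20 alternatives, among them the fits without Ctrl (edgeR adjusted p = 0.778) and without Ang2 Ab (edgeR adjusted p = 0.256).

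Itga5 and Itgb1, the chains of the fibronectin receptor, were spread more evenly. Itga5 stood at 37.7, 29.7, 21.2 and 51.0 CPM in EC-like cells, at 31.3, 31.6, 38.9 and 32.2 in macrophage-like cells, and at 28.4, 29.3, 32.4 and 51.0 in microglia-like cells, the last of these from the 22 EC-Ang2 cells. The 3 classes overlapped. Between microglia-like and EC-like cells the log2 difference was 0.20 ± 0.23 (edgeR adjusted p = 0.462) and 0.26 without EC-Ang2 (edgeR adjusted p = 0.363), and between EC-like and macrophage-like cells it was -0.40 ± 0.19 (edgeR adjusted p = 0.0561), which passed without the EC-Ang2 library (-0.63, edgeR adjusted p = 0.0112) and was 0.04 when counts were scaled to library totals alone. T cell-like cells were the exception, with 6, 0, 6 and 4 Itga5 UMIs in all, or 4.76, 0, 6.40 and 2.23 CPM. In Ang2 Ab, the library with 0, the floor of 3 counts lay at 2.72 CPM. T cell-like cells lay below every macrophage-like value (-3.61 ± 0.37, edgeR adjusted p = 5.05e-09). The upper estimate of free RNA was 40.4%, 24.6% and 105% of the Itga5 UMIs of T cell-like cells in mIgG1, Ctrl and EC-Ang2. Dendritic cell-like cells were lower too, at 17.7 to 27.1 (-0.79 ± 0.25, edgeR adjusted p = 0.0151), except without mIgG1 (edgeR adjusted p = 0.0649). Monocyte-like cells, at 35.02 to 54.5, missed the threshold (0.53 ± 0.20, edgeR adjusted p = 0.0623) and passed it without Ctrl (edgeR adjusted p = 0.035).

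Itgb1 was high in 2 classes and level in the others. T cell-like cells held 318, 284, 474 and 360.1 CPM and EC-like cells 348, 329, 310.4 and 370.4, and these overlapped. The other 5 classes lay between 117 and 174, so that each of them stood below both. Against macrophage-like cells the difference was 1.07 ± 0.13 for T cell-like (edgeR adjusted p = 1.36e-07) and 0.76 ± 0.13 for EC-like cells (edgeR adjusted p = 8.91e-06), and microglia-like cells lay -1.04 ± 0.14 from EC-like cells (edgeR adjusted p = 2.53e-07). At a depth thinned to 2000 UMIs per cell, 44.2% to 49.3% of EC-like and 38.9% to 55.3% of T cell-like cells held an Itgb1 UMI, against 20.2% to 28.9% in the other classes (67.6% to 81.6%, 58.4% to 76.9% and 33.3% to 73.1% without thinning).

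Selplg was high in 3 unlike classes. T cell-like cells held 730.1, 797, 825 and 759.7 CPM, dendritic cell-like cells 574, 682, 735 and 639.9, and microglia-like cells 628, 837 and 1261 in mIgG1, Ang2 Ab and Ctrl. These ranges overlapped. The 22 microglia-like cells of EC-Ang2 held 198 CPM. Macrophage-like cells had the least of the leukocyte classes, with 141, 141, 272 and 157. Against them the log2 difference was 2.02 ± 0.31 in T cell-like (edgeR adjusted p = 4.10e-06), 1.85 ± 0.31 in dendritic cell-like (edgeR adjusted p = 2.81e-05), 1.81 ± 0.31 in microglia-like (edgeR adjusted p = 4.83e-05) and 1.69 ± 0.31 in neutrophil-like cells, at 310.25 to 632 (edgeR adjusted p = 0.000106). Of the microglia-like values, only the 198 of the 22 EC-Ang2 cells fell in the macrophage-like range. Without that library the microglia-like difference was 2.08 (edgeR adjusted p = 1.25e-07). Monocyte-like cells, at 196 to 292, overlapped macrophage-like cells (0.54 ± 0.30, edgeR adjusted p = 0.200).

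Counted over all 8 genes, T cell-like cells differed from macrophage-like cells in 8 (5 higher, 3 lower), where 55.8% of the 10126 genes tested passed, 27.5% higher and 28.4% lower. EC-like cells differed in 7 (1 higher, 6 lower), where 75.7% of all genes passed, 41.3% higher and 34.5% lower. Dendritic cell-like cells differed in 7 (3 higher, 4 lower) against 37.7% of all genes, 18.5% higher and 19.2% lower. Microglia-like cells differed in 5 (1 higher, 4 lower) against 37.6%, 18.9% higher and 18.7% lower, and in 3 without the Ang2 Ab or the Ctrl library. Monocyte-like cells differed in 4 (3 higher, 1 lower) against 24.2%, 11.8% higher and 12.4% lower. Neutrophil-like cells were the least different, with 2 (Selplg higher, Itgb2 lower) against 42.2%, 20.8% higher and 21.4% lower. Microglia-like cells differed from EC-like cells in 6 (5 higher, 1 lower) against 65.7%, 30.7% higher and 35.0% lower. With counts scaled to library totals alone the median of all genes shifted by 0.19 in T cell-like, -0.23 in neutrophil-like, -0.07 in monocyte-like, 0.21 in microglia-like, 0.10 in dendritic cell-like and 0.43 in EC-like cells against macrophage-like cells and by -0.22 in microglia-like against EC-like cells. The share of calls that were higher went in the same order from 49.2% to 59.5%, from 49.3% to 33.4%, from 48.9% to 38.2%, from 50.2% to 70.7%, from 49.1% to 58.3% and from 54.5% to 71.4%, and from 46.7% to 35.9% for the last. The replicates of a class here are 4 libraries of different conditions. All 7 classes were fitted together with library as a block and share 1 estimate of the spread. The p-values and SEs therefore rest on the scatter left after class and library, pooled over the classes. They do not measure the spread of 1 class alone or the spread between mice.

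EC-like cells held most leukocyte genes at a level that free RNA could give. From barcodes of 1 to 50 UMIs, taken as free of cells, and with every UMI of 10 leukocyte genes in EC-like cells counted as free RNA, free RNA was put at 6.40% to 10.3% of the UMIs of EC-like cells. This upper estimate would give more Itgam, Itgb2, Itgb7 and Selplg UMIs than were counted in all 4 libraries. For Selplg, 134, 184, 287 and 87 UMIs were counted against 234, 307, 432 and 375 from free RNA. Itgal was at 35, 28, 21 and 22 counted UMIs against 33.1, 46.9, 21.7 and 40.3. The estimate takes the 10 leukocyte genes as free RNA from the start. Of these, Cd14 stood at 355 to 935 CPM in EC-like cells. The estimate is therefore an upper limit and cannot show whether EC-like cells express these 5 genes at a low level. For Itga5 the upper estimate was 7.12% to 11.5% of the UMIs, for Itgb1 3.96% to 7.48% and for Itga4 20.5% to 43.6%. The share of cells with an Itgb2 UMI at 2000 UMIs per cell was 1.48% to 2.66% in EC-like cells and 58.2% to 63.8% in macrophage-like cells (3.82% to 7.39% and 88.5% to 94.8% without thinning, at median depths of 3625 to 6051 and 6536 to 8852 UMIs).

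**Figure D2:**
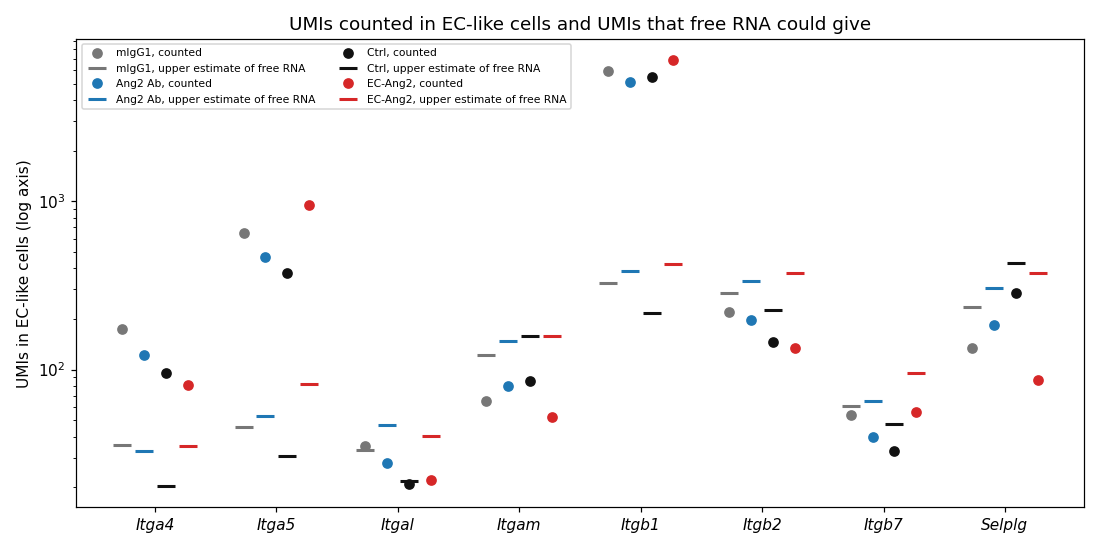
UMIs of each gene counted in EC-like cells (points) and the upper estimate of what free RNA could give (dashes), by library on a log axis. Itga4, Itga5 and Itgb1 lie above their dashes in all 4 libraries, while Itgam, Itgb2, Itgb7 and Selplg lie below them.

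The dendritic cell-like class was made of 2 kinds of clusters that differed in their integrin chains. Clusters led by Ccr7 and Fscn1, which mark dendritic cells that leave tissue for lymph nodes, held 65, 84, 20 and 34 cells in mIgG1, Ang2 Ab, Ctrl and EC-Ang2, and the other cluster of each pair, with Ccl17 and Klrd1 among its leading genes, held 128, 131, 110 and 91. Itga4 stood at 321, 324, 248 and 279 CPM in the Ccr7 clusters against 77.7, 94.1, 90.0 and 83.5 in the others. Itgb2 went the other way, with 49.2, 24.4, 0 and 21.0 against 217, 195, 233 and 251. Itgb7 followed Itgb2, at 10.5 to 31.8 against 205 to 329. Selplg was at 922 to 1125 against 446 to 706, and Itgb1 at 219 to 261 against 106 to 161. The share of all genes that separate between these kinds of cluster was not counted. The separation of the 8 genes is therefore not read as particular to them. Since clusters are built from the same cells, no test was made.

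**Figure D3:**
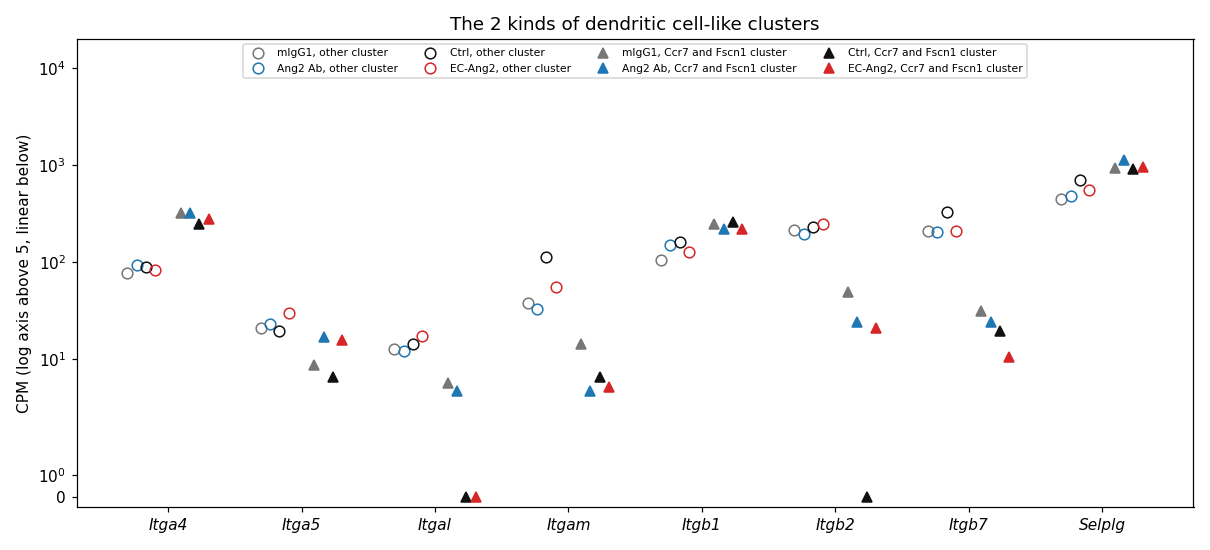
CPM of the 8 genes in the 2 kinds of dendritic cell-like clusters (axis linear below 5 and logarithmic above), 1 point per library. Triangles, the clusters led by Ccr7 and Fscn1, lie above the circles for Itga4, Itgb1 and Selplg and below them for the other 5 genes.

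Macrophage-like cells formed 4 clusters in mIgG1 and Ang2 Ab and 3 clusters in Ctrl and EC-Ang2, and Itgb2 ran over a wide range among them. In clusters with Nos2 among their leading genes it stood at 671 and 784 CPM in mIgG1 and Ang2 Ab and at 690 and 680.5 in Ctrl and EC-Ang2, and in the blockade cluster led by Ms4a7 and Apoe at 316 and 299.8. Over all macrophage-like clusters Itgb2 ran from 299.8 to 881, Itgam from 137 to 298, Selplg from 109 to 324, Itgb7 from 31.3 to 96.0 and Itgb1 from 107 to 190.3.

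Ang2 Ab was compared with mIgG1 in each class, and most values lay close to each other. Of 56 values (8 genes in 7 classes), 42 were measured well enough (a UMI in at least 10% of cells of 1 library and at least 50 UMIs in the 2 libraries together), and 3 of these were at least 1.5-fold apart, 1 higher and 2 lower, where 10.4% of all gene values measured as well were that far apart. In T cell-like cells 0 of the 6 measured genes were, against 10.3% of all genes. Itga4 there was at 58.0 CPM in Ang2 Ab and 71.4 in mIgG1, a log2 ratio of -0.30 with an exact 95% interval of -0.79 to 0.18, and Itgb1 was at 284 and 318 (-0.16, -0.38 to 0.05). Intervals of ratios express the error of counting and hold nothing of the spread between mice.

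Monocyte-like cells (13.9% of all genes) held Itga5 at 54.5 CPM in Ang2 Ab against 35.02 in mIgG1, a log2 ratio of 0.64 (0.22 to 1.06). In macrophage-like cells (5.1% of all genes) Itgb7 was at 39.7 against 61.1 (-0.62, -0.77 to -0.47), lower in each of the 4 macrophage-like clusters, and Itga4 was at 26.4 against 37.9 (-0.52, -0.71 to -0.34), just inside the 1.5-fold limit. Microglia-like cells (15.7% of all genes) held Itgal at 12.8 against 44.2 (-1.79, -2.75 to -0.92), from 14 and 53 UMIs, and the ratio was -0.65 when a cluster of 142 and 147 cells with microglia and macrophage markers was added and also smaller in size with predicted doublets kept. Selplg in the same cells was at 837 against 628 (0.41, 0.27 to 0.55). No gene passed in neutrophil-like (22.5% of all genes), dendritic cell-like (11.8%) or EC-like cells (2.8%). In EC-like cells Itga5 was at 29.7 against 37.7 (-0.34, -0.52 to -0.17) and Itgb1 at 329 against 348 (-0.08, -0.13 to -0.03).

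**Figure D4:**
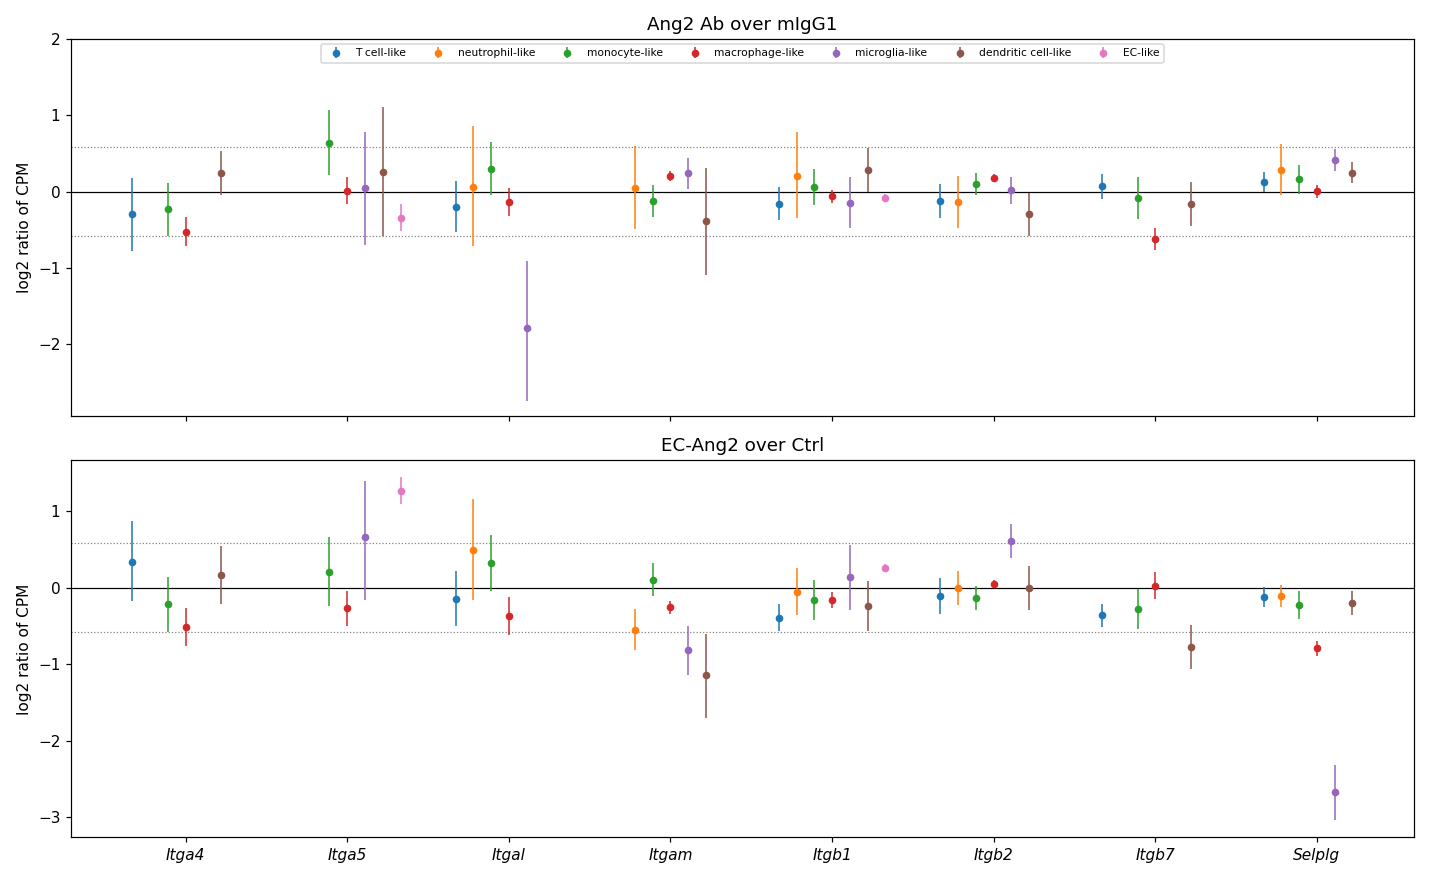
Log2 ratio of CPM, Ang2 Ab over mIgG1 (top) and EC-Ang2 over Ctrl (bottom), for each gene and class measured well enough, with exact 95% intervals that cover counting error only. Dotted lines mark 1.5-fold. Itga5 in EC-like cells is at 1.27 in the lower panel, and 3 values in the upper panel pass a line.

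With Ang2 overexpression the clearest value was Itga5 in ECs. EC-like cells of EC-Ang2 mice held 949 Itga5 UMIs, or 51.0 CPM, against 375 UMIs and 21.2 CPM in Ctrl, a log2 ratio of 1.27 with an interval of 1.09 to 1.44, where 10.9% of all genes in EC-like cells were at least 1.5-fold apart. Under 15 other settings the ratio was 1.11 to 1.33. At 2000 UMIs per cell, 7.27% of EC-like cells in EC-Ang2 and 3.44% in Ctrl held an Itga5 UMI (25.3% and 9.26% without thinning, at median depths of 6051 and 4251 UMIs), against 0% to 1.27% of T cell-like cells in the 4 libraries (0% to 2.75% without thinning, at median depths of 3669 to 4565). Its partner Itgb1 was at 370.4 against 310.4 CPM (0.26, 0.20 to 0.31). The Itga5 values of all 4 libraries run from 21.2 to 51.0, and the mIgG1 library, at 37.7, lies nearer to EC-Ang2 than Ctrl does. With 1 library per condition, the spread between Ctrl and mIgG1 cannot be told apart from strain, day and toxin dose.

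The higher level was found in most EC subtypes, which were named from marker genes that include Angpt2 for the capillary-venous one. In venous EC-like clusters Itga5 was at 70.1 CPM in EC-Ang2 and 28.6 in Ctrl, a fold of 2.45 and a log2 ratio of 1.29 (1.05 to 1.55). Arterial EC-like clusters held 45.4 against 21.8 (1.06, 0.44 to 1.69), capillary-venous ones 42.2 against 21.6 (0.96, 0.53 to 1.42) and unnamed ones 35.2 against 17.1 (1.04, 0.56 to 1.53). In capillary-arterial EC-like clusters the values were 15.7 and 12.3, and the interval of the log2 ratio, -0.36 to 1.06, spanned 0. The named subtypes of this pair join clusters in proportions that differ between the libraries. The venous one joins a cluster of 430 Ctrl and 496 EC-Ang2 cells with another of 431 and 227. The part of this mix in the ratios was not tested. In the blockade pair, Itga5 was at 25.5 in Ang2 Ab and 40.9 in mIgG1 in capillary-venous EC-like clusters (-0.68, -1.06 to -0.31) and at 41.9 and 50.7 in venous ones (-0.28, -0.54 to -0.02), and the intervals spanned 0 in the other subtypes. In EC-like cells the 4 capillary-venous markers, Angpt2 among them, summed to 4512 CPM in Ang2 Ab and 1202 in mIgG1. Their part in these subtype ratios was not tested. Itgb1 lay between 239 and 411 in every subtype and library. In EC-Ang2 over Ctrl its log2 ratio was 0.46 (0.34 to 0.59) in capillary-venous clusters. The intervals also lay above 0 in arterial, venous and unnamed ones. With Ang2 Ab it was -0.18 (-0.28 to -0.07) in capillary-venous and -0.21 (-0.38 to -0.03) in capillary-arterial clusters, and the other intervals spanned 0.

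**Figure D5:**
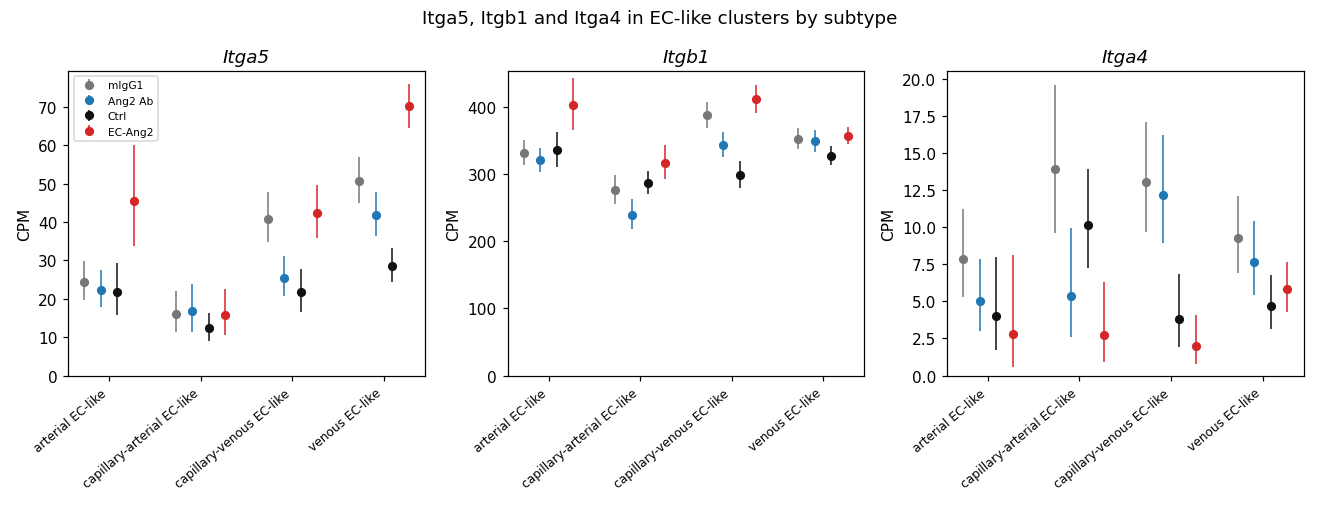
CPM of Itga5, Itgb1 and Itga4 in 4 EC subtypes, 1 point per library with its exact 95% Poisson interval. Itga5 is highest in EC-Ang2 in the venous clusters, at 70.1, and differs little between libraries in the capillary-arterial clusters, at 12.3 to 16.7.

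Of 56 values, 40 were measured well enough in the overexpression pair and 8 were at least 1.5-fold apart, 3 higher and 5 lower, against 18.3% of all gene values. In T cell-like (10.7% of all genes), neutrophil-like (25.2%) and monocyte-like cells (10.2%) the count was 0. Itgb1 in T cell-like cells was at 360.1 in EC-Ang2 and 474 in Ctrl (-0.40, -0.57 to -0.22), and Itga4 at 60.8 and 48.0 (0.34, -0.17 to 0.87). Itgam in neutrophil-like cells was at 152 and 222 (-0.55, -0.82 to -0.28), where the 6 microglia markers summed to 48.0 CPM in EC-Ang2 and 859 in Ctrl, and their part in this value was not tested.

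Microglia markers were lower in EC-Ang2 than in Ctrl in every class, and their part in the values below was not tested. Macrophage-like cells (11.2% of all genes) held Selplg at 157 in EC-Ang2 against 272 in Ctrl (-0.80, -0.89 to -0.70), and the microglia marker Tmem119 at 23.8 against 101. In cells without any UMI of the 6 microglia markers, a setting chosen after the data were seen, the Selplg ratio was -0.33. This setting kept 367 of 693 macrophage-like cells in Ctrl and 946 of 1395 in EC-Ang2. Dendritic cell-like cells (13.3% of all genes) held Itgam at 45.2 against 99.95 (-1.14, -1.70 to -0.61), with Tmem119 at 14.7 against 141, and the ratio was -0.56 in the cells without such UMIs. Itgb7 in the same class was at 168 against 287 (-0.77, -1.06 to -0.49) and at -0.74 in those cells. Within the dendritic cell-like cluster that is not led by Ccr7, Itgb7 was at 212 against 329. The remaining 4 values belong to microglia-like cells (45.3% of all genes), where Selplg was -2.67 (-3.04 to -2.32), Itgam -0.82 (-1.14 to -0.51), Itgb2 0.61 (0.38 to 0.83) and Itga5 0.66 (-0.17 to 1.39). They rest on the 22 cells of EC-Ang2 that held Ly6c2, and 4 values are left without that class.

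Genes that act with the integrins were taken from 7 lists, whose counts are to be read against the shares of all genes called in the same comparison: 27.5% higher and 28.4% lower in T cell-like, 20.8% and 21.4% in neutrophil-like, 11.8% and 12.4% in monocyte-like, 18.9% and 18.7% in microglia-like, 18.5% and 19.2% in dendritic cell-like and 41.3% and 34.5% in EC-like cells. Among genes that turn integrins on from inside the cell, such as talins, kindlins and adaptors, 16 of 17 were tested. Against macrophage-like cells 5 were higher and 2 lower in T cell-like, 7 higher and 1 lower in neutrophil-like, and 4 higher and 11 lower in EC-like cells. In monocyte-like cells 4 were higher and 0 lower, in microglia-like cells 5 and 4, and in dendritic cell-like cells 2 and 3. Skap1, a T cell adaptor of LFA-1, was at 223 to 272 CPM in T cell-like and 0.44 to 3.44 in macrophage-like cells (log2 difference 7.86 ± 0.37, edgeR adjusted p = 1.85e-15). Apbb1ip, which encodes the Rap1 effector RIAM, was at 75.0 to 232 in microglia-like and 0.91 to 2.54 in EC-like cells (6.65 ± 0.27, edgeR adjusted p = 4.45e-17). The median log2 difference of this list was -0.85 in EC-like cells, against 0.11 over all genes tested, and 0.66 in neutrophil-like cells, against -0.06.

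Other integrin chains were tested for 7 of 14 α and 2 of 5 β genes. Itgae, the partner of Itgb7 that binds E-cadherin, was at 17.7 to 107 in dendritic cell-like and 0.16 to 0.30 CPM in macrophage-like cells (8.11 ± 0.39, edgeR adjusted p = 1.85e-14). Itga3 was found at 15.3 to 22.0 in EC-like cells and at no more than 0.25 in microglia-like cells. Itgb5 was at 261 to 808 in microglia-like and 3.71 to 9.75 in EC-like cells (6.54 ± 0.43, edgeR adjusted p = 4.25e-13), and Itgb3 at 13.5 to 22.9 in T cell-like cells and at most 0.47 in macrophage-like cells (6.00 ± 0.50, edgeR adjusted p = 1.15e-10).

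Of the enzymes that give PSGL-1 its selectin-binding sugars, 9 of 11 were tested. T cell-like cells had 3 higher and 4 lower, neutrophil-like cells 4 higher and 0 lower, and EC-like cells 1 higher and 4 lower. The sialyltransferase St3gal6 was that 1 gene, at 485 to 567 in EC-like and 8.27 to 27.0 CPM in macrophage-like cells (5.09 ± 0.25, edgeR adjusted p = 6.94e-16). Gcnt1, which starts the branch that carries sialyl Lewis x, was at 15.0 to 49.8 in microglia-like and 2.39 to 4.35 in EC-like cells (3.76 ± 0.27, edgeR adjusted p = 2.35e-12).

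Selectins and other selectin ligands were tested for 9 of 10 genes, 7 of them higher in neutrophil-like cells and 4 higher and 4 lower in EC-like cells than in macrophage-like cells. This list includes genes high in EC-like cells, such as Selp and Sele. The upper estimate of free RNA, taken from EC markers, was 6.29% to 16.8% of UMIs in neutrophil-like and 4.56% to 7.36% in macrophage-like cells. Its part in the 7 neutrophil-like calls was not tested. Selp was at 60.5 to 264 CPM in EC-like and at most 3.00 in microglia-like cells, and Sele at 35.3 to 86.8 in EC-like and 0.16 to 0.89 in macrophage-like cells (6.57 ± 0.23, edgeR adjusted p = 1.29e-18). Among counter-receptors and matrix ligands, 10 of 14 were tested, with 6 higher and 3 lower in EC-like cells. Thy1, a ligand of Mac-1, was at 829 to 1102 in T cell-like cells, and Spp1, an integrin-binding matrix protein, at 2740 to 6113 in macrophage-like and 15.0 to 91.1 in EC-like cells (-6.90 ± 0.56, edgeR adjusted p = 1.88e-11). Of 10 chemokine receptors, which trigger arrest, 4 were higher and 4 lower in T cell-like cells and 8 lower in EC-like cells. Cxcr6 was at 868 to 1303 in T cell-like and 0.83 to 4.53 in macrophage-like cells (8.96 ± 0.49, edgeR adjusted p = 3.05e-14), and Ccr6 at 10.6 to 16.7 in T cell-like cells and at 0 UMIs in macrophage-like cells.

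The same lists were read between conditions. With Ang2 Ab, Itgb5 was at least 1.5-fold lower in 4 classes, at 119 against 219 CPM in macrophage-like cells (-0.88, -0.96 to -0.79), and so was Fyb, an adaptor between T cell or chemokine signals and integrins, at 107 against 180 in macrophage-like cells (-0.75, -0.84 to -0.66). Cd44 was higher in 3 classes, at 276 against 174 in macrophage-like cells (0.67, 0.60 to 0.74), and lower in microglia-like cells, at 39.3 against 63.4. Itgax was higher in macrophage-like cells, at 95.5 against 36.5 (1.39, 1.25 to 1.52), and lower in microglia-like cells, at 23.8 against 40.04 (-0.75, -1.50 to -0.03). Over the 76 measured values of the activation list 3 were at least 1.5-fold higher and 4 lower, a share near the 10.4% of all gene values. The PSGL-1 enzymes had 2 higher and 0 lower of 30 values. Shares were larger for selectins and other selectin ligands (6 higher and 1 lower of 23) and chemokine receptors (3 and 6 of 31). So they were for counter-receptors and matrix ligands (4 and 4 of 42), other α chains (2 and 1 of 14) and other β chains (0 and 4 of 5). A gene counts once in each class, and these shares were not tested.

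In the overexpression pair Selp in EC-like cells was at 264 in EC-Ang2 against 60.5 CPM in Ctrl (2.13, 2.03 to 2.22), and Rasgrp2, an activator of Rap1, at 30.2 against 90.1 (-1.58, -1.72 to -1.44). In the blockade pair Rasgrp2 was at 84.1 with Ang2 Ab against 45.7 with mIgG1 (0.88, 0.75 to 1.01). Spp1 was at least 1.5-fold higher in EC-Ang2 in 4 classes, at 380 against 182 in monocyte-like cells. In T cell-like cells it was at 37.3 against 18.1 and in EC-like cells at 28.5 against 15.0. Macrophage-like cells held 2740 to 6113, and the part of free RNA in these low values was not tested. Fn1, which encodes fibronectin, was at least 1.5-fold higher in 3 classes, at 472 against 205 in monocyte-like cells (1.20, 1.02 to 1.38). St3gal6 and Cx3cr1 were lower in 5 classes each, and Itgb5 in 3. For each of these 5 genes the microglia-like class, with its 22 EC-Ang2 cells, is among the classes counted, and without it the counts are 3 for Spp1, 2 for Fn1, 4 for St3gal6, 4 for Cx3cr1 and 2 for Itgb5. The 6 microglia markers summed to 859 CPM in Ctrl and 48.0 in EC-Ang2 in neutrophil-like cells. They summed to 395 and 60.8 in macrophage-like and to 125 and 26.0 in monocyte-like cells. Their part in the values of Cx3cr1, St3gal6 and Itgb5 was not tested. Of all gene values of this pair 18.3% were at least 1.5-fold apart. The lists had 12 higher and 7 lower of 40 values for counter-receptors and matrix ligands and 4 and 9 of 32 for chemokine receptors. They had 3 and 9 of 40 for PSGL-1 enzymes and 6 and 3 of 29 for selectins and other ligands. Other α chains had 1 and 5 of 14, other β chains 0 and 3 of 6 and the activation list 1 and 5 of 81. The microglia-like class is among these values, and the shares were not tested.

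The genes whose log2(CPM + 1) over the 28 points of class and library was most like that of each gene, among 5062 genes of at least 20 CPM on average, followed its leading classes. For Itgam they were Sirpa (Pearson r = 0.985), Zeb2os (0.984) and Fcgr3 (0.983), and for Itgb2 Hk2 (0.981), Cmtm7 (0.971) and Myo1f (0.970). Itgb7 was nearest to S100a4 (0.963), Cytip (0.947) and Gpr132 (0.939), and Selplg to Hmha1 (0.958), Coro1a (0.956) and Laptm5 (0.946). For Itga4 they were Gpr171 (0.936), Klrk1 (0.932) and Cytip (0.925), so that Cytip stood near both chains of the α4β7 pair. Itgb1 was nearest to Tnfsf8 (0.933) and Gimap1 (0.928), Itga5 to Ralb (0.918), Rnf130 (0.904) and Tpst1 (0.904), and Itgal to Gmfg (0.912), Ptpn7 (0.912) and Hcst (0.909). These points share libraries and free RNA, so the correlations are descriptions and carry no p.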

How the data were processed

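CD45+ and CD31+ spinal cord cells of 4 conditions were sequenced as 10x 3′ libraries, 1 per condition. The authors aligned and counted reads with Cell Ranger 2.1.1 against mm10, per the labels, and deposited unfiltered UMI counts per gene and barcode, of 52084739 to 66631583 UMIs per library. Seurat 2.3.4 is named in the processing notes.

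Barcodes of at least 2000 UMIs were kept, and cells above 10% mitochondrial UMIs, predicted doublets (Scrublet, at a rate that rises with the number of barcodes) and cycling cells were removed. Each pair was aligned by canonical correlation (25 vectors, 2000 variable genes) and clustered (Leiden, resolution 1.5, scanpy 1.11.5). Clusters were named from fixed markers, with the 8 genes and the listed genes left out as features and markers. The rules for mixed clusters were set after the clusters were seen. UMIs were summed by class and library and fitted with edgeR 4.0.16 (quasi-likelihood test, TMM, library as a block, filterByExpr), with Benjamini-Hochberg adjustment over 10126 genes at 0.05. A level (CPM) is a gene's UMIs per 1000000 UMIs of the class. Counts of 3′ UMIs were not compared between genes.

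Between conditions there was 1 library each and no test: log2 ratios have exact conditional binomial 95% intervals, and values of at least 1.5-fold were counted where at least 10% of cells of 1 library held the gene and at least 50 of its UMIs were counted in the 2 libraries together. Floors are 3 counts. Positions are from GENCODE vM21 and promoters from RefSeq. On simulated counts for T cell-like against macrophage-like cells (9530 genes), 12%, 54%, 96% and 100% of genes changed 1.5-, 2-, 4- and 8-fold were recovered, 50 of each. Apart from the changed genes, the simulation gave each gene the same mean in every class. It used a fixed dispersion and no library effect other than size. These shares are therefore not the recovery to be had in the real data.

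All 8 genes were named in every class. For the lists, the 2 genes with the largest called difference per list, and the genes past 1.5-fold in the most classes of a pair, were eligible to be named. For likeness, the 3 genes of highest Pearson r were named, except 1 gene that is not reported here. The genes and lists were chosen with earlier results of these data known. Alternatives on mixed clusters, on both Itgam rows, on cells without microglia marker UMIs, on free RNA and on classes under 50 cells were chosen after seeing the data.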

Additional observations from a re-analysis of the deposited data

Results flagged for a closer look

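The 56 sets of 4 library values (8 genes in 7 classes) were compared as log2(CPM + 1). In 4 sets a library's gap to the nearest of the others, as a share of the range, exceeded Dixon's 95% limit for 4 samples. Chance passes this limit in about 1 of 20 sets. Levels below are in CPM, and gaps are on the log2 scale. Itga4 in the 22 microglia-like cells of EC-Ang2 stood at 33.0 CPM, above the other libraries, with a gap of 0.841 of the range. In macrophage-like cells of Ctrl, Itga5 was high at 38.9 (0.864 of the range) and Selplg was high at 272 (0.839). Itgb7 in macrophage-like cells of Ang2 Ab was low at 39.7 (0.965). The microglia markers summed to 395 CPM in macrophage-like cells of Ctrl and to 60.8 to 131 in the other libraries. In cells without a UMI of these markers the Selplg ratio of EC-Ang2 over Ctrl was -0.33, against -0.80 in all macrophage-like cells. The part of these markers in the Selplg and Itga5 values was not tested.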

How the results depend on the processing

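No paired analysis between conditions was possible because the labels give no replicate numbers and each condition has 1 library. The class tests compared classes within libraries, with library as a block. Of the values recomputed for single genes, 1162 kept their direction and side of the threshold or stayed within error, 38 gained a call, 27 lost one, 25 moved and 28 turned sign. For neutrophil-like against macrophage-like cells the count of genes called was 2, and it became 4 with library totals alone, 5 from 500 UMIs and 4 with each cell assigned by its own marker UMIs. Leaving out 1 library gave 7 to 8 genes in T cell-like, 2 to 3 in neutrophil-like, 3 to 5 in monocyte-like, 3 to 5 in microglia-like, 6 to 7 in dendritic cell-like and 7 to 8 in EC-like cells, and 5 to 6 in microglia-like against EC-like cells. The microglia-like count was 3 without Ang2 Ab and 3 without Ctrl. In the blockade pair 3 values passed 1.5-fold, against 1 at a fold of 2, 6 at a natural log fold change of 0.25, 5 with cycling cells kept, 6 with doublets kept, 5 from 500 UMIs, 6 when the UMI minimum was set by the order-of-magnitude rule, 5 at the lower resolution and 5 with mixed clusters added to microglia-like cells. In the overexpression pair 8 passed, against 3 at a fold of 2, 14 at 0.25, 5 with PCA without alignment, 3 with each cell assigned by its own markers and 4 without classes under 50 cells.

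Values that turned sign belong to class differences that were not called, and to 1 ratio past 1.5-fold. With library totals alone, Itga4 was -0.053, Itga5 -0.074 and Itgb1 -0.18 in neutrophil-like cells, Itga5 0.012 in microglia-like and 0.036 in EC-like cells, Itgb1 0.093 in dendritic cell-like cells and Itga5 -0.024 in microglia-like against EC-like cells. Itga4 in neutrophil-like cells was -0.062 with doublets, -0.50 from 500 UMIs, -0.054 at the lower resolution, -0.23 by each cell's markers, -0.12 in cells without microglia marker UMIs and -0.00032 to 0.26 without 1 library. Itgb1 in neutrophil-like cells was -0.048 without a filter, -0.053 with cycling cells, -0.034 by the order-of-magnitude rule, -0.0083 with the listed genes kept, -0.0059 by each cell's markers and -0.084 to 0.12 without 1 library. Itgb1 in dendritic cell-like cells was 0.032 by DESeq2, 0.33 by each cell's markers, 0.017 without microglia marker UMIs and -0.13 to 0.020 without 1 library. In microglia-like against EC-like cells Itga4 was -0.23 with the listed genes kept and -0.33 to 0.63 without 1 library, and Itga5 was -0.14 with cycling cells. Itga5 in microglia-like cells, EC-Ang2 over Ctrl, was 0.66 and became -0.40 with cycling cells. The cause was not tested. Classes of few cells (22 and 75 in the smallest) limit the precision.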
